A study of Homo sapiens with 4 samples.

Results

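The genes described are 10 integrin subunit genes in MDA-MB-231 Fluc cells, 5 for alpha chains (ITGA2, ITGA3, ITGA5, ITGA6 and ITGAV) and 5 for beta chains (ITGB1, ITGB3, ITGB4, ITGB5 and ITGB8). They were selected from the deposited RNA-seq table by gene symbol, with earlier results of these data known, and all 10 were found among its 13957 genes. The MDA-MB-231 line was derived from a triple-negative breast cancer and has mesenchymal features, and the Fluc derivative used in all samples also carries an inserted luciferase gene. There were 2 samples treated with 50 μM cordycepin, an adenosine analogue without the 3' hydroxyl group, and 2 that received DMSO as the vehicle, all for 2 h, and RNA-seq was performed on ribosomal RNA-depleted, stranded libraries with 75 bp paired-end reads. The values given here are the authors' mean expression of each gene over these 4 libraries, as log2 CPM (read counts scaled by library size). Their column is headed logCPM and names no library, so it was taken to be the mean over all 4. A mean over treated and untreated cells does not show what cordycepin did to a gene. The columns in which the authors compare cordycepin with DMSO were not used here, so no difference between the groups is reported. As no value per library was used, no SD and no confidence interval can be given, the depth of the libraries is unknown, and differences in level between genes were not tested.

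Integrins are receptors that hold cells to the extracellular matrix. Each is a pair of 1 alpha and 1 beta chain, and the pair decides the ligand. ITGB1, the common beta chain, can join each of the 5 alpha chains described here, giving receptors for collagen with ITGA2, for laminins with ITGA3 and ITGA6, and for fibronectin with ITGA5. ITGAV also joins ITGB3, ITGB5 and ITGB8 in receptors that recognise vitronectin, fibronectin or latent TGF-β, and ITGB4 joins ITGA6 in the laminin receptor of hemidesmosomes. The short cytoplasmic tails of most subunits bind adaptor proteins that connect them to actin, and integrins take part in migration and invasion of breast cancer cells.

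The chains carry short motifs in these tails that connect the receptor to the cell interior, and the coding bases of these motifs are shown because they were found in all alpha members and in 3 of the 5 beta members. The alpha chains share the membrane-proximal GFFKR motif, which helps to hold the receptor in its resting state. It was found once in the last 60 codons of the canonical transcript of all 5 alpha members. The coding strand is written 5' to 3' from the GENCODE release 44 transcripts (GRCh38), with the bases of the motif in capitals.

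ITGA2: aagctcGGCTTCTTCAAAAGAaaatat

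ITGA3: aagtgcGGCTTCTTCAAGCGAgcccgc

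ITGA5: aagcttGGATTCTTCAAACGCtccctc

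ITGA6: aagtgtGGTTTCTTCAAGAGAaataag

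ITGAV: aggatgGGCTTTTTTAAACGGgtccgg

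The motif of ITGA3 lies on the plus strand of chromosome 17 at 50088228 to 50088242, and that of ITGA6 on the plus strand of chromosome 2 at 172501775 to 172501789. Over the 15 bases of the motif, ITGA3 and ITGA6 had 13 bases in common, and so did ITGA2 with each of them. ITGA6 and ITGAV had 9, the fewest of any pair. Beta chains bind talin and kindlin through NPXY-type motifs, and the first of these in the last 60 codons is shown in capitals for the beta members that had a match.

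ITGB1: acgggtgaaAATCCTATTTATaagagtgcc

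ITGB3: acagccaacAACCCACTGTATaaagaggcc

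ITGB5: atggcttcaAATCCATTATACagaaagcct

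These 12 bases lie on the minus strand of chromosome 10 at 32901618 to 32901629 for ITGB1, on the plus strand of chromosome 17 at 47310145 to 47310156 for ITGB3 and on the minus strand of chromosome 3 at 124763701 to 124763712 for ITGB5. Each pair of the 3 motifs had 8 of 12 bases in common. No match was found in the last 60 codons of ITGB4 or ITGB8, which says nothing about motifs elsewhere in their coding sequence.

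The most abundant integrin mRNAs were those of ITGA3 and ITGA6, alpha chains of laminin-binding receptors, and of ITGB1, the common beta chain. Because long transcripts give more reads, levels were compared between genes per kb of the canonical transcript in GENCODE. ITGA3 (ENSG00000005884, chromosome 17, 50055968 to 50090481, GRCh38) had an authors' mean of 10.51 log2 CPM, which is a level of 8.22 log2 CPM per kb or 298.1 CPM per kb. This was above 98.3% of the genes in the table. ITGB1 (ENSG00000150093, chromosome 10, 32900318 to 33005792) had an authors' mean of 9.98 log2 CPM, and a level of 8.08 log2 CPM per kb. The level of ITGA3 was 1.10 times that of ITGB1, and their order turned when the gene lengths of the deposited table were used (7.22 log2 CPM per kb for ITGA3 and 7.39 for ITGB1). ITGA6 (ENSG00000091409, chromosome 2, 172427354 to 172506459) followed with an authors' mean of 9.66 log2 CPM and a level of 7.12 log2 CPM per kb, above 95.8% of genes. Each of these 3 genes was above 90% of all genes in level per kb, and the same 3 were the highest members with each of the 5 ways of treating length.

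**Figure D1:**
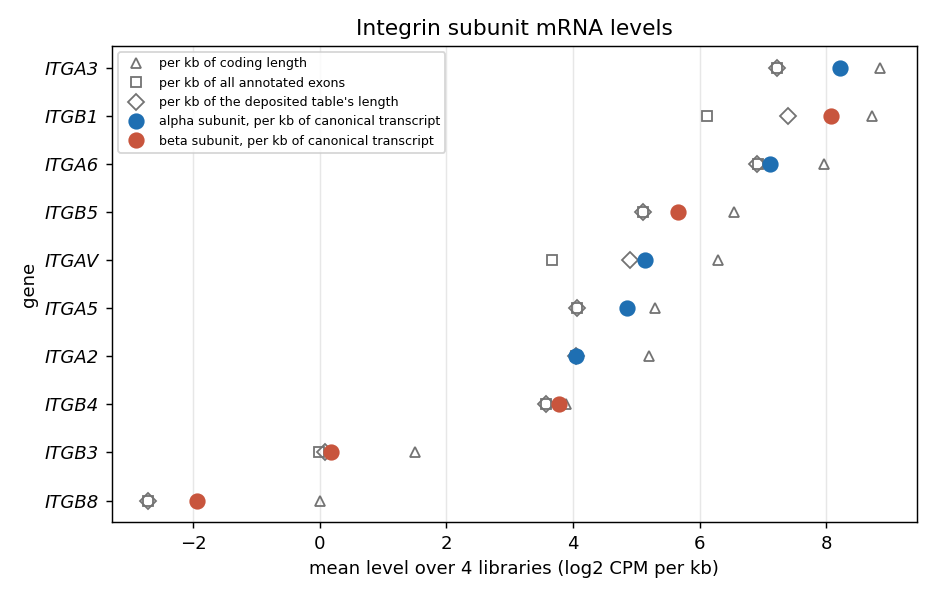
Authors' mean level over 4 libraries of each integrin subunit gene (horizontal axis, log2 CPM per kb), with filled points for the canonical transcript and open symbols for 3 other lengths; no error bars can be given. ITGA3, ITGB1 and ITGA6 sit highest and ITGB3 and ITGB8 lowest with every length.

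The alpha chains were dominated by the laminin receptor chains. As a share of the summed CPM per kb of the 5 alpha members, ITGA3 made up 57.6% and ITGA6 26.9%, which together is 84.4%. ITGAV (ENSG00000138448, chromosome 2, 186590056 to 186680901), the shared chain of the vitronectin receptors, had an authors' mean of 7.94 log2 CPM, a level of 5.13 log2 CPM per kb and a share of 6.76%. ITGA5 (ENSG00000161638, chromosome 12, 54395261 to 54419266), the fibronectin receptor chain, had an authors' mean of 6.95 log2 CPM and a level of 4.86 log2 CPM per kb, or 5.60% of the alpha sum. ITGA2 (ENSG00000164171, chromosome 5, 52989340 to 53094779), the collagen receptor chain, had an authors' mean of 7.02 log2 CPM and a level of 4.05 log2 CPM per kb (3.20%), the lowest of the alpha members with this length. Per kb of all annotated exons ITGAV was the lowest instead, at 3.67 log2 CPM per kb, with ITGA2 at 4.04 and ITGA5 at 4.06. The annotated exons of ITGAV cover 19336 bases, compared with 7039 in its canonical transcript and 8220 for its length in the deposited table. The CPM of ITGA2 was slightly above that of ITGA5, while its level per kb of canonical transcript was below. The canonical transcript of ITGA2 is 7843 bases long, compared with 4250 for ITGA5. From the highest to the lowest alpha chain the levels spanned 18.0-fold, and 9.02-fold to 12.6-fold with the other ways of treating length.

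The beta chains were more uneven, with ITGB1 at 80.5% of their summed CPM per kb, or 59.3% per kb of all annotated exons. ITGB5 (ENSG00000082781, chromosome 3, 124761948 to 124901418), a partner of ITGAV in the vitronectin receptor, came next with an authors' mean of 7.81 log2 CPM, a level of 5.66 log2 CPM per kb and 15.0% of the beta sum, or 29.4% per kb of all annotated exons. ITGB4 (ENSG00000132470, chromosome 17, 75721328 to 75757818), which has a much longer tail than the other beta chains, had an authors' mean of 6.34 log2 CPM and a level of 3.78 log2 CPM per kb (4.10%, or 10.3% per kb of all annotated exons). ITGB3 and ITGB8 together made up 0.414%, and at most 0.974% with the other lengths. ITGB3 (ENSG00000259207, chromosome 17, 47253827 to 47313743), the beta chain also found on platelets, had an authors' mean of 2.75 log2 CPM and a level of 0.18 log2 CPM per kb, above 9.11% of genes. In GENCODE, 33.2% of the exonic bases of ITGB3 overlap a protein-coding gene on the same strand, ENSG00000259753, which was not in the deposited table. Reads in the overlap could have been assigned to either gene or to none. ITGB8 (ENSG00000105855, chromosome 7, 20330702 to 20415754), whose pairing with ITGAV is known for activating latent TGF-β, had an authors' mean of 1.21 log2 CPM, compared with 0.56 for the lowest gene in the table. Its level of -1.95 log2 CPM per kb was above 0.359% of genes. Any small count added before taking logarithms, which is not given in the sources used here, weighs most on values this low, and fold differences from ITGB8 depend on it. From ITGB1 to ITGB8 the levels per kb spanned 1046-fold, and from 419.5-fold with coding length to 1097-fold with the length of the deposited table among the alternatives. The 3 lowest members, ITGB4, ITGB3 and ITGB8, came in that order with all 5 ways of treating length.

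Partner chains were then set side by side, since they form 1 receptor. The summed level of the alpha members was 517.8 CPM per kb and that of the beta members 335.3 CPM per kb, a ratio of 1.54. This ratio was 2.71 when all annotated exons were used as the length. For the ITGA6 and ITGB4 pair, the alpha mRNA was 10.1 times the level of the beta mRNA per kb, and 17 times with coding length. For the receptors of ITGAV with chains other than ITGB1, the level of ITGAV was 0.694 times that of ITGB5, 31.0 times that of ITGB3 and 136 times that of ITGB8. Per kb of all annotated exons these ratios were 0.371, 13 and 83.4. ITGAV stood at 78.1 times the level of ITGB8 with coding length, and at 196 times with the length of the deposited table. Among these 3 partners ITGB5 was therefore the most abundant, at 44.6 times the level of ITGB3, and 32.4 to 34.9 times with the other ways of treating length. ITGB1, which can also join ITGAV and ITGA6, stood at 5.35 times the level of ITGB5, 7.71 times that of ITGAV and 1.94 times that of ITGA6. Per kb of all annotated exons ITGB1 was below ITGA6, at 6.11 and 6.92 log2 CPM per kb. The ratios given here are of mRNA averages, and amounts of receptor at the cell surface were not measured in these libraries.

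**Figure D2:**
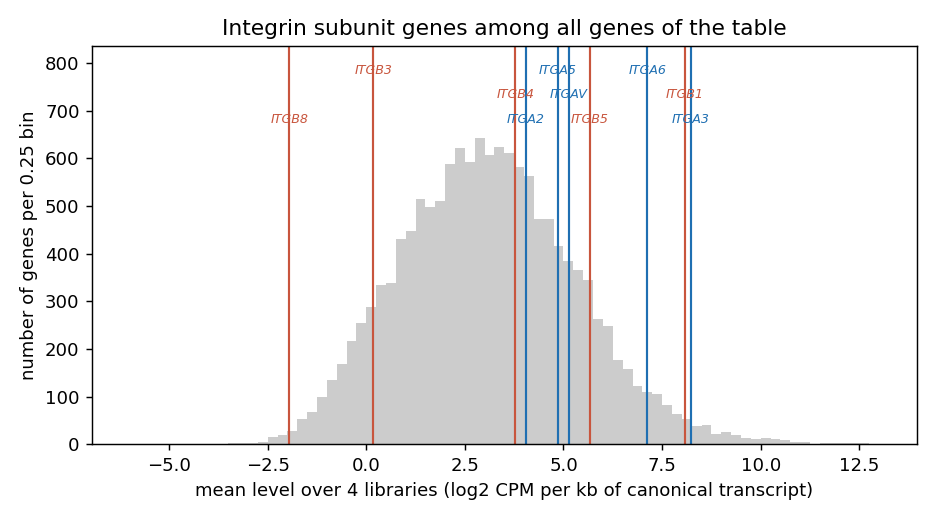
Number of genes (vertical axis, per bin of 0.25) by authors' mean level over 4 libraries (horizontal axis, log2 CPM per kb of canonical transcript), with lines for the alpha members in blue and the beta members in red. Of the 10 members, 8 lie above the median of all genes, at 3.04, and ITGB3 and ITGB8 lie in the lower tail.

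The median level of the 10 members was 4.99 log2 CPM per kb, compared with 3.04 over all genes with an annotated length, and 8 of 10 were above the latter. The members were taken from the genes present in the table, so this median describes the chosen genes and not all integrins. Per kb of coding length, ITGB4 was above only 41.4% of genes, and so below their median. Another 4 integrin subunit genes were in the table, and all had levels below the median of all genes. ITGAE, which pairs with ITGB7 on lymphocytes of epithelia, had 2.43 log2 CPM per kb, and ITGB2, the beta chain of leucocytes, had 1.53. ITGA1 and ITGA10, both collagen receptor chains, had 1.04 and -0.51 log2 CPM per kb. The remaining 12 of the 26 human integrin subunit genes were not found in the table by symbol. They are ITGA2B, ITGA4, ITGA7, ITGA8, ITGA9, ITGA11, ITGAD, ITGAL, ITGAM, ITGAX, ITGB6 and ITGB7.

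The mRNA levels of genes for matrix ligands were measured in the same libraries. Of 35 matrix ligand genes listed, 28 were in the table, with a median level of 5.24 log2 CPM per kb, and 22 were above the median of all genes. The highest were THBS1, which encodes the matrix glycoprotein thrombospondin-1, at 9.71 log2 CPM per kb, FN1, which encodes fibronectin, at 8.45, and CCN1, a matricellular ligand of ITGAV receptors, at 7.39. LAMA4, a laminin alpha chain, was the lowest, at -0.66 log2 CPM per kb. The laminin chain genes LAMA3 and LAMB3, named after their values were seen, had 3.15 and 6.16 log2 CPM per kb. The value of LAMA3 is divided by a long canonical transcript of 10651 bases, and shorter LAMA3 transcripts were not separated. VTN, which encodes vitronectin and was also named after its value was seen, had 0.46. Vitronectin in culture comes mainly from serum, which these values do not cover.

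On the inner side of the membrane, 29 of 30 adaptor and kinase genes were in the table, with a median of 4.56 log2 CPM per kb, and 22 were above the median of all genes. FLNA, which encodes an actin crosslinker that binds beta tails, was the highest at 9.15 log2 CPM per kb, followed by the actinin genes ACTN1 at 8.26 and ACTN4 at 8.19. FERMT3, the kindlin of blood cells, was the lowest at 0.10 log2 CPM per kb. Its relatives FERMT2 and FERMT1, named after their values were seen, had 4.86 and 2.78, and the talin genes TLN1 and TLN2, named in the same way, had 6.71 and 1.76. All 12 genes of membrane partners were in the table and above the median of all genes, with a median of 6.60 log2 CPM per kb. CAV1, which encodes the coat protein of caveolae, had 8.95, BSG, which encodes basigin, had 8.50 and CD151, a tetraspanin that associates with ITGA3 and ITGA6, had 8.02. CD47, an integrin-associated receptor of thrombospondin-1, was the lowest at 3.98 log2 CPM per kb.

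**Figure D3:**
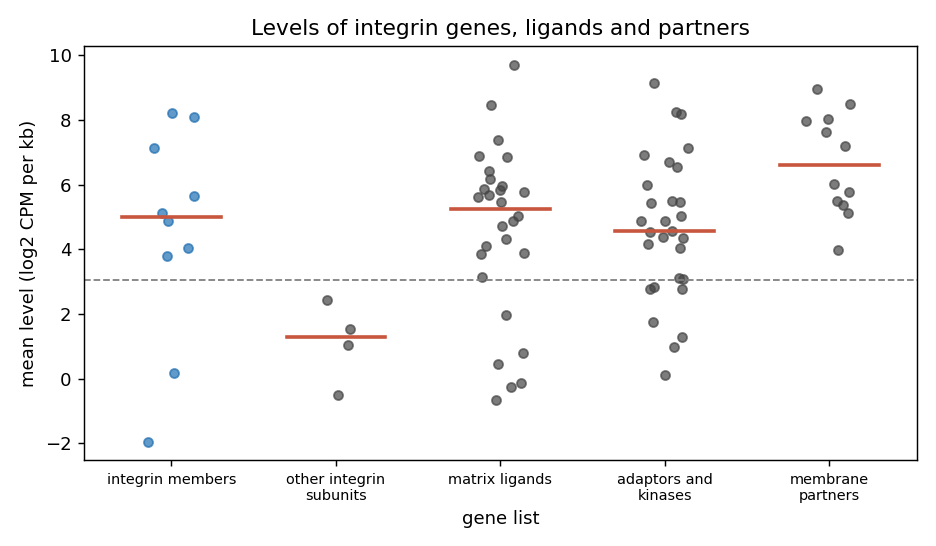
Authors' mean level over 4 libraries (vertical axis, log2 CPM per kb of canonical transcript) of each gene (points) by gene list (horizontal axis), with red bars at the list medians and a dashed line at the median of all genes, 3.04. The members spread from -1.95 to 8.22 around a median of 4.99, and the membrane partners, with a median of 6.60, all lie above the dashed line.

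The integrin transcripts were long. The median canonical transcript of the 10 members was 5856 bases, compared with 3445 for all protein-coding genes in the table. The coding part of the alpha chains was very even, from 3147 bases for ITGAV to 3546 for ITGA2. Of the beta chains, 4 had coding lengths from 2310 to 2400 bases, while ITGB4 had 5469. In bases, the 3' UTRs had the widest range, from 263 bases in ITGB4 to 5757 in ITGB8. Canonical transcripts of alpha members had 26 to 30 exons, and those of beta members 14 to 40, with the largest number in ITGB4. The genes lie on 7 chromosomes, with ITGA3, ITGB3 and ITGB4 on chromosome 17 and ITGA6 and ITGAV on chromosome 2, and 3 of the 10 (ITGA5, ITGB1 and ITGB5) are on the minus strand.

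**Figure D4:**
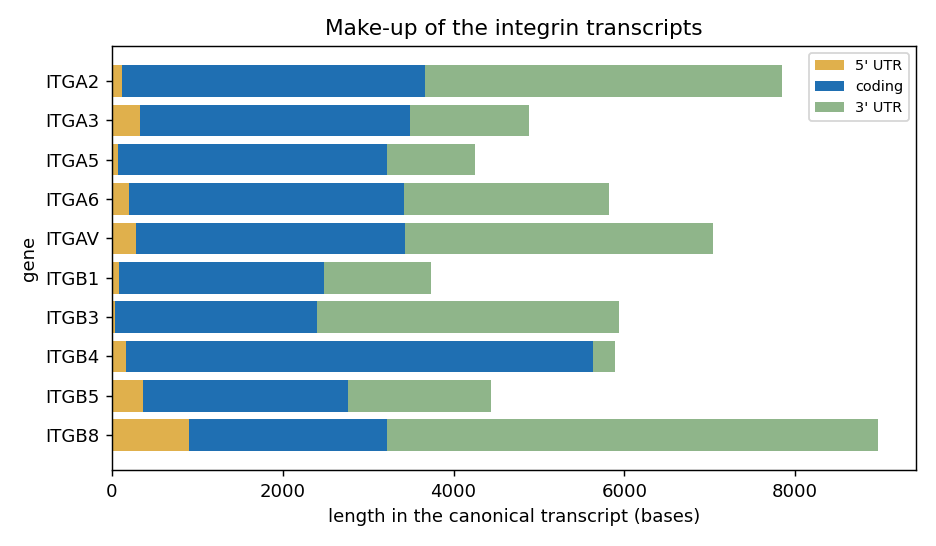
Length in bases (horizontal axis) of the 5' UTR, coding part and 3' UTR of the canonical GENCODE transcript of each integrin gene (vertical axis). The alpha chains have coding parts of similar length, ITGB4 has the longest coding part, 5469 bases, and ITGB8 the longest 3' UTR, 5757 bases.

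The labelled cell line was checked against marker genes. All 6 listed genes typical of MDA-MB-231 were in the table, from EGFR at 5.34 log2 CPM per kb to VIM, which encodes vimentin, at 9.34, with CAV1 and AXL at 8.95 and 8.77. The hormone receptor genes ESR1 and PGR and the basal keratin genes KRT5 and KRT14 were not among its genes. Of the luminal or epithelial markers, 8 of 10 were in the table, and 5 of these were above the median of all genes. They ranged from FOXA1 at 0.53 to KRT8 at 8.28 log2 CPM per kb, with KRT19 at 7.86 and KRT18 at 7.62. CDH1, ERBB2, EPCAM and GATA3, named after their values were seen, had 1.41, 4.31, 3.05 and 2.86. Of 4 leucocyte markers only ITGB2 was in the table, and of 2 platelet markers neither was.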

How the data were processed

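Duplicate libraries from cordycepin and DMSO treated MDA-MB-231 Fluc cells were sequenced. Reads were mapped by the authors to GRCh38.p13, and rsubread was used for counting. The processing notes of the submitters name hg38, TopHat, HTSeq, DESeq and Cufflinks, without a role. The authors' deposited table gives the expression of each gene as log2 CPM, and a gene length (another column of the table). The log2 CPM column names no library and was taken to be the mean pooled over the 4 libraries. Normalization, filter and the count added before taking logarithms are not given in the sources used here. The table also holds 4 columns of the authors' own comparison, with a fold change, its test statistic and its p-values before and after adjustment, which were not used, and 0 further columns of values per sample. Library depth is therefore unknown and no test was made.

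Levels were divided by the length of the canonical transcript in GENCODE release 44 (GRCh38), in which 13922 genes (99.7%) were found by ID, 82.1% of them with the same start and end. CPM values are 2 to the power of the mean log2 CPM. Coordinates of genes are those of the deposited table. All 10 members, the other integrin subunits, and the 3 highest and the lowest gene of each list were named, and genes outside this rule are marked in the text. The values of the other genes on these lists are left out of the text. Members and lists were chosen with earlier results of these data known. Alternatives were coding length, the union of all annotated exons, no division by length, other sets of background genes and, chosen after seeing the data, the length in the deposited table. The calculations were tested on simulated data. Python 3.11.15, numpy 2.4.6, pandas 2.3.3 and matplotlib 3.10.9 were used.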

Additional observations from a re-analysis of the deposited data

How the results depend on the processing

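The median level of the 10 integrin genes, 4.99 log2 CPM per kb of canonical transcript, was 5.79 per kb of coding length, 4.05 per kb of all annotated exons and 4.48 with the gene length of the deposited table. The median percentage of genes with a lower level, 80.5%, became 73.4% with coding length, 78% with all annotated exons, 82.4% with the length of the deposited table, 80% against protein-coding genes, 74.2% against genes above the lowest 25% of mean log2 CPM and 90.9% without division by length. The share of ITGB1 in the summed level of the beta members, 80.5%, became 79% with coding length, 59.3% with all annotated exons, 77.9% with the length of the deposited table and 76.3% without division by length. The fall to 59.3% follows from the length itself, as the annotated exons of ITGB1 cover 14561 bases in GENCODE 44 and 6012 in the deposited table. Without division by length, ITGAV was 1.10 times the level of ITGB5, and per kb of all annotated exons 0.371 times, so the order of these genes depends on the length used. Of the 130 values for single genes recomputed in this way, 2 were equal to the printed precision and 128 moved, with no replicate spread to read them against. Another length or background alters nearly every value by construction, so these counts do not measure how stable the levels are. No paired analysis was possible because no values per library were used, and for the same reason no library could be left out. Low genes such as ITGB3 and ITGB8 are limited by an unknown depth.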
